A study of Mus musculus with 4 samples.

Results

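The genes described here are 8 mouse genes of glutathione and thiol defence, Srxn1, Txnrd1, Gclm, Gclc, Slc7a11, Prdx1, Ggt1 and Mgst2, out of 28625 gene symbols counted in activated CD4 T cells of the lung-draining lymph node. They were chosen from values of these data: Srxn1 led the largest cluster of the Tfh sort, Ggt1 was higher in cells with Il13 transcripts, and the other 6 are known partners in the same chemistry. Earlier values of Mgst2 in the Tfh sort were also known at that choice. Droplet RNA counts came from 2 sorts of 3 hashtagged mice each, in which the mouse is the replicate. The Tfh sort took TCRβ+ CD4+ CD44+ PD-1+ CXCR5+ cells, the surface profile of T follicular helper cells, from C57BL/6 mice. The reporter sort took TCRβ+ CD4+ CD44+ cells positive for GFP from 4GET IL-4 reporter mice on the same background, in which GFP marks cells that have opened the Il4 locus. All mice received 10 µg Alternaria alternata extract with 25 µg NP-OVA in the nose, and the mediastinal node was taken on day 7. All sorted cells were restimulated with PMA and ionomycin for 30 minutes, so every level given here is one after restimulation, and no unstimulated cells were analysed here. Sex and age of the mice are not given in the sources used here.

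NRF2 (gene Nfe2l2) is a transcription factor that KEAP1 holds back until electrophiles or oxidants modify KEAP1. NRF2 then pairs with a small MAF protein and binds antioxidant response elements, where BACH1 and BACH2 compete with it. In T cells, glutathione made in this way buffers the reactive oxygen that activation produces and allows growth and division. Of the genes here, Gclc (catalytic subunit) and Gclm (modifier subunit) form the enzyme that limits glutathione synthesis, and Slc7a11 imports the cystine it needs. Ggt1 is a cell surface γ-glutamyltransferase that opens extracellular glutathione and also converts leukotriene C4 to leukotriene D4. Mgst2 is a membrane-bound glutathione transferase that can make leukotriene C4. Prdx1 reduces peroxide, Srxn1 repairs peroxiredoxins that have been over-oxidised, and Txnrd1 recharges thioredoxin with NADPH.

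Promoter sequences are shown because the genes were grouped as targets of one factor, and the sequences show which of them hold its motif near the start. Each runs from 250 bases before to 50 bases after a RefSeq start of build GRCm38.p6, 5′ to 3′ on the gene's strand, the plus strand for all 5 shown. Capitals mark the antioxidant response element core TGACNNNGC and the AP-1 motif TGANTCA on either strand; N is any base. The order is Srxn1 (chr2:152105274-152105573), Prdx1 (chr4:116685349-116685648), Gclm (chr3:122245307-122245606), Ggt1 (chr10:75563882-75564181) and Mgst2 (chr3:51660929-51661228).
Srxn1: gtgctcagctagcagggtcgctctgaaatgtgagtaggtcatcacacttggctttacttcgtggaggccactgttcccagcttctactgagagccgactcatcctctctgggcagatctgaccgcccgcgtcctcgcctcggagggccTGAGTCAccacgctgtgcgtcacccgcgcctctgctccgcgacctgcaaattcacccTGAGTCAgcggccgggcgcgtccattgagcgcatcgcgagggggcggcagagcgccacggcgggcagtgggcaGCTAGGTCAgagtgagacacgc
Prdx1: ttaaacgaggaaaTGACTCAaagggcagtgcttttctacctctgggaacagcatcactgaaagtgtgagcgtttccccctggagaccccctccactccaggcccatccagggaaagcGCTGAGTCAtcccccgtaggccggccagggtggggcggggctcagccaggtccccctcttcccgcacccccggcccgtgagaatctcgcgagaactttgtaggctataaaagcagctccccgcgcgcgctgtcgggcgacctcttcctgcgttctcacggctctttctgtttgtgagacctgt
Gclm: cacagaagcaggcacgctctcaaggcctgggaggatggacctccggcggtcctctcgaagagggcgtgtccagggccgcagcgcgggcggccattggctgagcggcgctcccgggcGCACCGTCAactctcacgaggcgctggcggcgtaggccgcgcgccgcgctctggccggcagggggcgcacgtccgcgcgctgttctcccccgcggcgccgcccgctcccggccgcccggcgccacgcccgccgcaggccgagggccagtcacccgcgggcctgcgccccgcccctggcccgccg
Ggt1: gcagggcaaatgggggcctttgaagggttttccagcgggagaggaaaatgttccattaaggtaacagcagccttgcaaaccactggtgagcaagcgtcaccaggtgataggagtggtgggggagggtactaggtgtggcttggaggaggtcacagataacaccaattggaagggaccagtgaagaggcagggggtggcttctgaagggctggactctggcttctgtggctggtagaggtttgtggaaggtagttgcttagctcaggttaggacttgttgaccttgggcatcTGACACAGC
Mgst2: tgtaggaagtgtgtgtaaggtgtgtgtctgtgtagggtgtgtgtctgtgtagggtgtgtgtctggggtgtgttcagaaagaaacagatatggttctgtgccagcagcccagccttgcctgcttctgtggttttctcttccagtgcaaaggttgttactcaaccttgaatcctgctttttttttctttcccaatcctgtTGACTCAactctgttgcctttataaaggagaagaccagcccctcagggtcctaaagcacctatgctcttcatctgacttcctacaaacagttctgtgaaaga
RefSeq held 12 promoters for 7 of the 8 genes, including 4 for Ggt1, and none was matched for Gclc. The core was in 7 of the 12, namely those of Gclm, Prdx1 and Srxn1, 3 of the 4 of Ggt1 and 1 of Txnrd1, and in 12.4% of all 32851 promoters of this length. The AP-1 motif, which the transcription factors induced by PMA and ionomycin bind, was in 3 of the 12 and in 7.81% of all. It had 2 copies in the Srxn1 promoter, 2 in the Prdx1 promoter, where one copy overlaps the core, and 1 in the Mgst2 promoter, which holds no core. The GATA motif AGATAA was in 1 of the 12, the Ggt1 promoter shown, and in 11.2% of all. The ATF4 composite TTGCATCA was in 1 of the 12, that of Slc7a11, and in 0.895% of all. These are matches of letters, and no binding was measured.

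In GENCODE M21 (GRCm38) the genes lie at chr2:152105516-152111376 (Srxn1), chr10:82833951-82897712 (Txnrd1), chr3:122245557-122270732 (Gclm), chr9:77754535-77794485 (Gclc), chr4:116685544-116700822 (Prdx1), chr10:75561604-75586200 (Ggt1) and chr3:51660360-51682677 (Mgst2) on the plus strand, and at chr3:49892526-50443614 (Slc7a11) on the minus strand. All are protein coding, and their counts are of reads near transcript 3′ ends, so exons and isoforms are not told apart. Txnrd1, Gclm, Mgst2 and Slc7a11 overlap another annotated gene on the same strand and Prdx1 has a processed copy, Prdx1-ps, so reads of these 5 could be divided differently by another annotation.

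After filtering, 3102 T cells of the Tfh sort (687 to 1254 a mouse, median 2788 UMIs) and 3577 of the reporter sort (1052 to 1328 a mouse, median 6644 UMIs) were assigned to a mouse. A UMI is 1 counted molecule. Cells with B cell transcripts and no Cd3 transcript numbered 367 and 122 and serve as a comparison for free RNA. In the reporter sort 4585 of 7646 barcodes passed the filters on gene number and mitochondrial share, and in the Tfh sort 3916 of 3956. Just 1 barcode was found in both sorts. Of the Tfh-sort T cells, sorted on surface CXCR5, 2197 held no Cxcr5 UMI, so a cell without a mark is not shown to lack it. The sorts differ in mouse strain, 10x chemistry (version 2 for the Tfh sort, version 3 for the reporter sort) and sequencer, which cannot be told apart, so levels are set side by side and not tested between them. Levels are in CPM, the UMIs of a gene scaled to the total UMIs of the summed cells of a mouse, and changes are log2 values from edgeR.

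All 8 genes were detected in both sorts, and their order of abundance ran from Prdx1 to Slc7a11. Prdx1 stood at 961, 953 and 995 CPM in mice 1 to 3 of the Tfh sort and at 502, 550 and 518 CPM in the reporter sort. Txnrd1 was at 61.4 ± 6.63 CPM (SD, n = 3) and 63.4 ± 6.38 CPM, and Gclm at 46.5 to 49.2 CPM and 46.8 to 53.1 CPM. These 2 genes thus had closely similar levels in sorts that differ in strain and chemistry. Srxn1 was at 29.9, 21.5 and 20.7 CPM in the Tfh sort and at 7.05, 5.36 and 4.73 CPM in the reporter sort, with no overlap. Gclc was at 6.48, 7.96 and 7.51 CPM in the Tfh sort and at 33.6, 33.2 and 24.2 CPM in the reporter sort. Ggt1 was at 2.08, 5.09 and 2.25 CPM against 18.4, 18.2 and 17.1 CPM. Srxn1 and Prdx1 were thus higher in every Tfh-sort mouse, and Gclc and Ggt1 in every reporter-sort mouse. How many of all genes separate the sorts in this way was not counted, and Srxn1 and Ggt1 were chosen from these data. The separation is therefore not read as particular to these genes. Mgst2 was at 35.2, 26.8 and 17.7 CPM in the Tfh sort and at 18.3, 16.9 and 15.8 CPM in the reporter sort, so the sorts overlapped.

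The cystine importer gene Slc7a11 was almost silent, with 8 UMIs in 6 T cells of the Tfh sort and 17 UMIs in 13 T cells of the reporter sort, and it was too low for any test. B-like cells held no Slc7a11 and no Ggt1 UMI in either sort, which allows a share of up to 0.817% of the 367 cells and 2.46% of the 122. These limits are for cells with a UMI, not for cells that express the gene, at medians of 2030 and 4533 UMIs a cell. The other 6 genes were detected in B-like cells, Srxn1 at 3.66 CPM in the Tfh sort and 2.32 CPM in the reporter sort and Mgst2 at 9.05 and 9.49 CPM. Each of the 6 was lower there than in the T cells of the same sort, except Gclc of the Tfh sort (8.998 CPM).

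**Figure D1:**
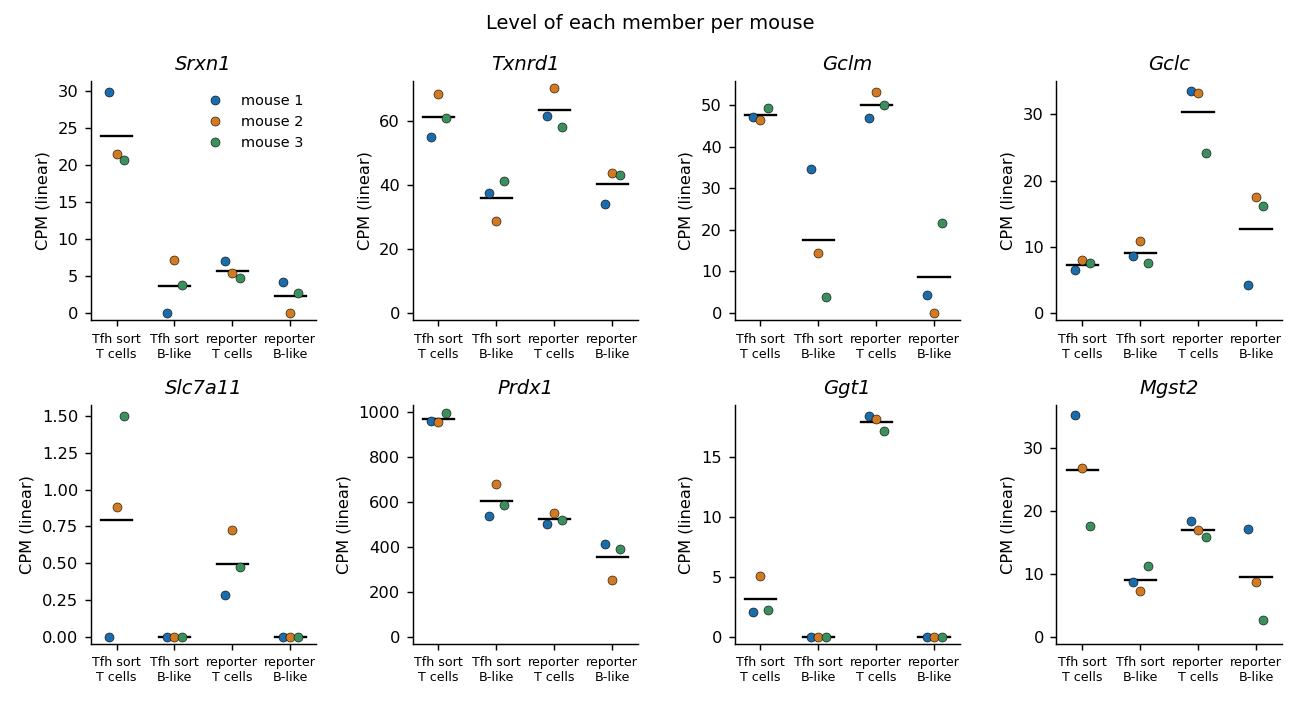
Level of each of the 8 genes in CPM (linear axes, 1 panel a gene) in T cells and B-like cells of both sorts; points are mice and bars the mean of 3 mice. Srxn1 and Prdx1 stood higher in the T cells of the Tfh sort, Gclc and Ggt1 higher in those of the reporter sort, and Ggt1 and Slc7a11 were at 0 in B-like cells.

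Among reporter-sort cells, those with Il13, the cytokine of type 2 effector cells, were compared with cells that had Il4 but no Il13. Il13+ cells had 2 or more Il13 UMIs (232, 242 and 159 cells in mice 1 to 3), and Il4+ Il13- cells no Il13 UMI and at least 2 of Il4 (41, 52 and 85 cells). Ggt1 was chosen for its rise with Il13, so its values here are described and not tested. Of the 6 other genes that passed the filter on low counts, Txnrd1, Gclc and Prdx1 were higher and Mgst2 lower in Il13+ cells at an edgeR adjusted p under 0.05. In this contrast 28.3% of all 9042 genes tested were called, 14.3% higher and 14.0% lower, so a call by itself is common here. DESeq2 called 2 of the 6, Txnrd1 and Prdx1. The median change over all genes was -0.01.

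Ggt1 had the largest change of the 7, but it was chosen for its rise with Il13, so this rank is no result. Ggt1 stood at 47.0, 32.5 and 41.6 CPM in Il13+ cells and at 7.58, 9.39 and 6.94 CPM in Il4+ Il13- cells (503 against 14 UMIs). The lowest Il13+ mouse was above the highest mouse of the other state, and the log2 change was 2.29 ± 0.32 (SE). With cells matched for total UMIs the levels were 49.3, 46.2 and 55.6 against 7.58, 9.39 and 7.06 CPM, a change of 2.63, and without cells with an Mki67 or Top2a UMI the change was 1.61. When every cell was thinned to 2000 UMIs, 51 of 621 Il13+ cells (8.21%) held a Ggt1 UMI, 4 of 177 Il4+ Il13- cells (2.26%) and 8 of 1827 cells with neither cytokine (0.438%). Unthinned these shares were 29.2%, 5.06% and 1.63%, and no B-like cell of 116 held one after thinning, which allows up to 2.59% of cells with a UMI.

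Gclc, whose product catalyses the first step of glutathione synthesis, stood at 56.4, 43.9 and 30.3 CPM in Il13+ cells and at 17.7, 22.5 and 24.3 CPM in Il4+ Il13- cells. The groups did not overlap, although mouse 3 came close, and the change was 0.80 ± 0.25 (adjusted p = 0.014). It was larger at matched total UMIs (1.28, adjusted p = 0.0067) and without Mki67 or Top2a cells (1.11, adjusted p = 0.036). The call was lost under 4 of 14 alternatives, namely without mouse 1 (0.54, adjusted p = 0.11), without mouse 2 (0.78, adjusted p = 0.082), by DESeq2 (0.88, adjusted p = 0.11) and at a mitochondrial limit of 5% (0.61, adjusted p = 0.30). Its partner Gclm stood at 60.4, 62.7 and 76.7 against 53.1, 46.9 and 40.5 CPM and missed the threshold (0.50 ± 0.20, adjusted p = 0.052), with a value of 0.16 at matched total UMIs.

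The thioredoxin genes had smaller changes. Txnrd1 stood at 84.5, 93.1 and 89.2 CPM in Il13+ cells and at 58.1, 31.9 and 48.6 CPM in the other state, a rise of 0.90 ± 0.19 (adjusted p = 0.00039) that was 0.77 at matched total UMIs (adjusted p = 0.023). Prdx1 stood at 652, 678 and 685 against 435, 449 and 457 CPM, a rise of 0.52 ± 0.11 (adjusted p = 0.00051) that was not called at matched total UMIs (0.25, adjusted p = 0.18). Neither was called without Mki67 or Top2a cells, at 0.50 for Txnrd1 and 0.25 for Prdx1. Srxn1 rested on 118 against 7 UMIs and was not called (1.04 ± 0.53, adjusted p = 0.15).

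Mgst2 went the other way, with 6.95, 5.61 and 3.14 CPM in Il13+ cells against 20.2, 9.39 and 12.7 CPM. Every Il13+ mouse was below every mouse of the other state, and the change was -1.52 ± 0.43 (adjusted p = 0.0068). Just 67 against 24 UMIs carry it. At matched total UMIs it was -0.76 (adjusted p = 0.35), without mouse 3 -1.27 (adjusted p = 0.11), by DESeq2 -1.49 (adjusted p = 0.071) and at a mitochondrial limit of 5% -1.51 (adjusted p = 0.20).

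The Il13+ cells also differed in size and cycling. Their median UMI counts were 12233, 13016 and 16091, against 7602, 7445 and 7972. Cells with an Mki67 or Top2a UMI, both genes of dividing cells, made up 65.1%, 71.5% and 70.4% against 48.8%, 40.4% and 44.7%. The summed mast cell or basophil markers were at 6.41, 0.774 and 0.523 CPM in Il13+ cells and at 0 in the other state. The UMIs in Il13+ cells were of Mcpt8 and Cpa3, while the markers Fcer1a, Ms4a2 and Gata2 were at 0 in both states. The values at matched total UMIs and without Mki67 or Top2a cells, given above, bear on size and cycling. The part of the mast cell or basophil markers was not tested.

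**Figure D2:**
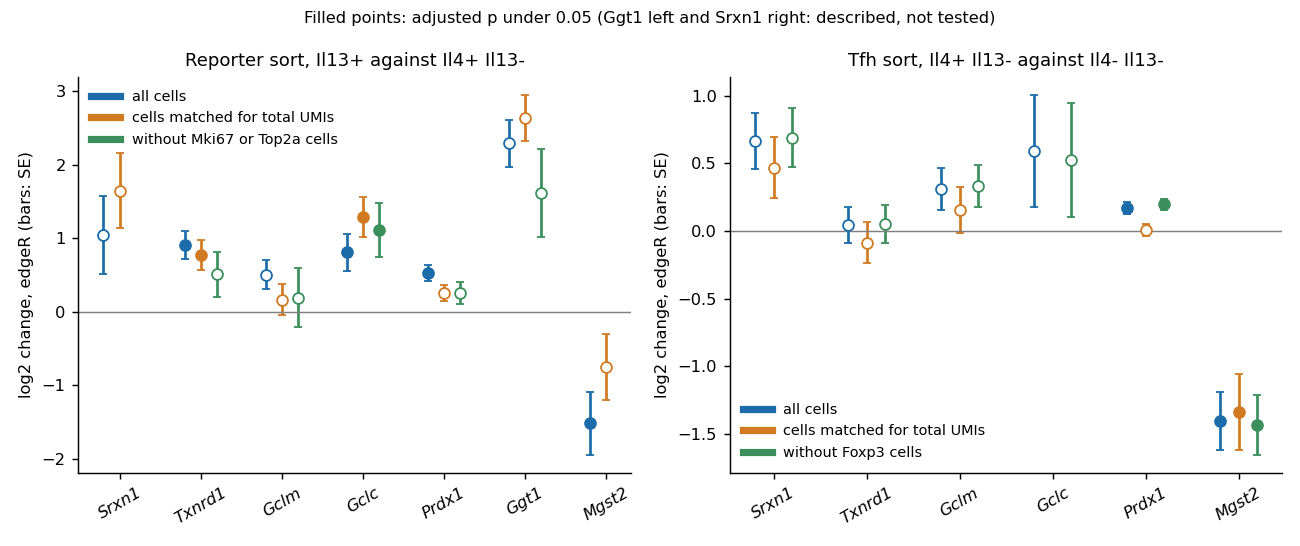
Log2 change ± SE from edgeR for each gene tested, filled where the adjusted p was under 0.05, but always open for Ggt1 on the left and Srxn1 on the right, which are described and not tested; left, Il13+ against Il4+ Il13- reporter-sort cells with all cells, with cells matched for total UMIs and without cells with Mki67 or Top2a, where Srxn1 and Mgst2 were not tested; right, the Il4+ Il13- cells of the Tfh sort against those with neither cytokine, with all cells, with matched cells, where Gclc was not tested, and without Foxp3 cells. With all cells, Ggt1 was at 2.29 and Mgst2 at -1.52 in the left panel, and Mgst2 at -1.41 in the right. Mgst2 on the right is filled by the same rule, but it too is described and not tested.

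Across finer steps of Il13, Ggt1 and Gclc followed different courses. With 0, 1, 2 to 9, 10 to 49 and 50 or more Il13 UMIs a cell, Ggt1 averaged 4.24, 9.70, 43.9, 45.3 and 32.1 CPM over 3 mice. Ggt1 was thus near one level at 2 to 9 and at 10 to 49 Il13 UMIs and lower at 50 or more. Gclc averaged 21.0, 30.1, 33.9, 40.8 and 53.9 CPM over the same steps, and Txnrd1 46.6, 58.9, 58.5, 89.3 and 108 CPM, both highest in the last step. Mgst2 averaged 24.7, 20.8, 5.25, 3.51 and 6.15 CPM. Cells with more Il13 UMIs also held more UMIs in all, so these steps are not matched for depth.

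Ggt1 was higher with Il13 both in cells with and in cells without the 2 division genes. Without an Mki67 or Top2a UMI, Ggt1 averaged 2.89 CPM in cells with no Il13 and 32.1 CPM in cells with 2 or more Il13 UMIs, and with one it averaged 5.72 and 41.1 CPM. Gclc averaged 23.0 and 55.5 CPM in the first class and 18.6 and 41.5 CPM in the second. Gclm and Prdx1 differed more between the classes than with Il13, at 61.3 against 32.2 CPM for Gclm and 625 against 367 CPM for Prdx1 in cells with and without an Mki67 or Top2a UMI. With cells ranked by total UMIs in 5 equal bins, from the lowest to the highest bin Prdx1 went from 284 to 681 CPM and Gclm from 34.3 to 64.9 CPM, while Mgst2 went from 32.3 to 7.91 CPM.

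**Figure D3:**
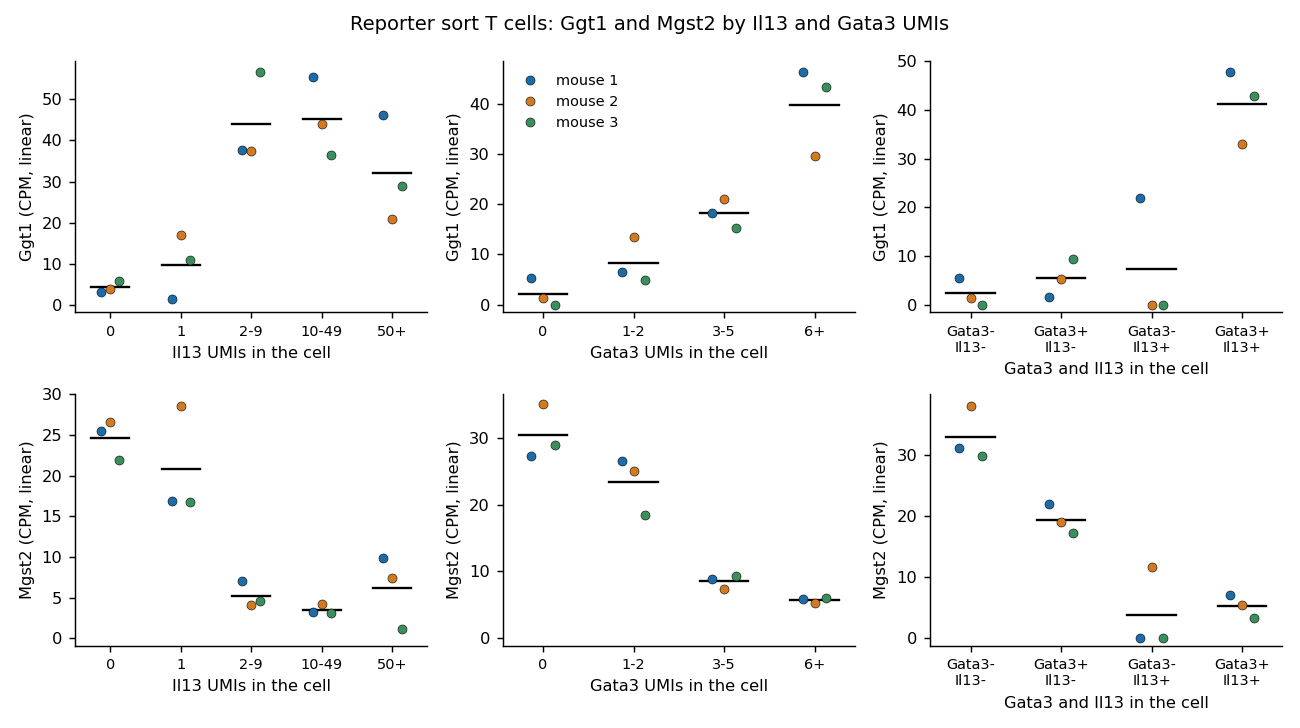
Ggt1 (top) and Mgst2 (bottom) in CPM in T cells of the reporter sort by Il13 UMIs, by Gata3 UMIs and by both together; points are mice and bars the mean of 3 mice. Ggt1 was high where Gata3 and Il13 were both detected (41.2 CPM) and Mgst2 where neither was (33.0 CPM). Cells are not matched for depth here.

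Il4+ Il13- cells of the reporter sort were also compared with cells of neither cytokine (709, 558 and 822 cells). Here edgeR called 0 of 7 genes, against 2.55% of 9103 genes in all (1.87% higher and 0.681% lower), with 1 at an unadjusted p under 0.05 and 0 by DESeq2. At so low a share over all genes, the lack of a call among 7 says little about them. Srxn1 held just 7 UMIs in the Il4+ Il13- cells. Ggt1 stood at 7.58, 9.39 and 6.94 against 3.33, 2.39 and 5.20 CPM, without overlap, but on 14 UMIs in the first state (1.08 ± 0.55, adjusted p = 0.43). Mgst2 stood at 20.2, 9.39 and 12.7 against 24.8, 29.5 and 24.2 CPM (-0.89 ± 0.30, adjusted p = 0.14). Gclc at 17.7, 22.5 and 24.3 CPM overlapped with 20.8, 20.4 and 19.9 CPM (0.17, adjusted p = 0.85). This comparison shares its Il4+ Il13- cells with the one before.

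**Figure D4:**
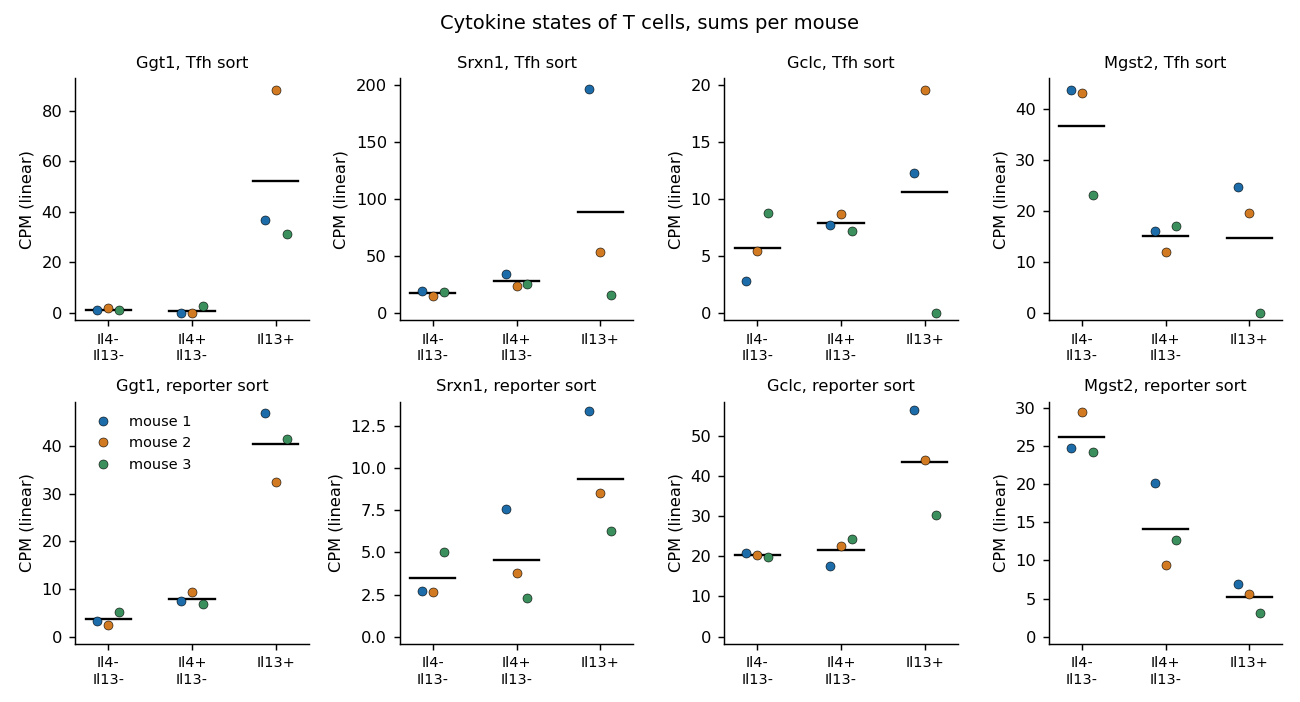
Ggt1, Srxn1, Gclc and Mgst2 in CPM in T cells of the 3 cytokine states, for the Tfh sort (top) and the reporter sort (bottom); points are mice and bars the mean of 3 mice. In the reporter sort Ggt1 was 32.5 to 47.0 CPM in Il13+ cells and under 10 CPM in both other states.

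The reporter sort was next divided by lineage marks, Gata3 for type 2 helper cells and Cxcr5 or Sostdc1 for Tfh cells. Gata3-marked cells had a Gata3 UMI and neither Tfh mark, Tfh-marked cells the reverse, and the states were matched for total UMIs within each mouse (264, 275 and 228 against 126, 112 and 221 cells). Ggt1 stood at 15.1, 14.1 and 16.1 CPM in Gata3-marked cells and at 2.42, 1.37 and 0 CPM in Tfh-marked cells. No mice overlapped, and 82 against 3 UMIs, summed over mice, gave a ratio of 14.5. This too is a description, since Ggt1 was chosen with Il13, passed the filter on low counts only through the Gata3-marked cells, and Il13 itself differed here by 5.18 (638 ± 290 against 16.5 ± 3.68 CPM). Summed regulatory T cell markers were at 137, 114 and 146 CPM in Gata3-marked and at 234, 175 and 326 CPM in Tfh-marked cells, and NK cell markers at a mean of 0.899 and 4.02 CPM. Of 25 genes of acute stimulation 16 were higher, as were 13 of 17 proliferation genes. The part of these in the Ggt1 levels was not tested. Of the 5 other genes tested edgeR called 0, where 9.85% of 8402 genes were called (6.07% higher and 3.78% lower), with 2 at an unadjusted p under 0.05 and 0 by DESeq2.

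Gclc stood at 39.3, 49.2 and 22.5 CPM in Gata3-marked and at 26.6, 23.3 and 27.7 CPM in Tfh-marked cells, where mouse 3 went the other way (0.50 ± 0.24, adjusted p = 0.23). Without mouse 3 the value was 0.88 (adjusted p = 0.013). Mgst2 stood at 17.6, 20.4 and 17.3 against 25.4, 38.3 and 21.7 CPM, lower in every mouse, but it was not called (-0.53 ± 0.23, adjusted p = 0.18). Without matching for total UMIs it was -1.20 (adjusted p = 0.00076). Likewise Prdx1 was at 0.20 (adjusted p = 0.13) with matching and at 0.63 (adjusted p = 8.4e-05) without, Txnrd1 at 0.12 and 0.51, and Gclm at -0.05 and 0.47. Mki67 or Top2a was found in 36.0%, 35.3% and 38.2% of the matched Gata3-marked and 31.7%, 29.5% and 26.2% of the matched Tfh-marked cells.

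T cells of the reporter sort were then divided by Gata3 and Il13 at once. Ggt1 averaged 2.31 CPM in the 1291 cells with neither gene, 5.42 CPM in the 1323 with Gata3 and no Il13, and 41.2 CPM in the 587 with a Gata3 UMI and 2 or more of Il13. In the 46 cells with Il13 and no Gata3 UMI there were 2 Ggt1 UMIs, both in mouse 1 (21.9, 0 and 0 CPM). By Gata3 UMIs (0, 1 to 2, 3 to 5, 6 or more) Ggt1 averaged 2.22, 8.29, 18.2 and 39.7 CPM, Gclc 22.3, 22.02, 31.4 and 45.8 CPM and Mgst2 30.4, 23.3, 8.53 and 5.72 CPM. By Sostdc1 UMIs (0, 1 to 4, 5 or more) Ggt1 averaged 18.9, 9.17 and 7.55 CPM, and by Cxcr5 UMIs (0, 1, 2 or more) 19.6, 9.24 and 7.62 CPM. None of these classes and steps is matched for depth. At matched total UMIs, Mgst2 in Gata3-marked against Tfh-marked cells was at -0.53 (edgeR adjusted p = 0.18).

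In the Tfh sort the Il13+ cells were few, at 27, 33 and 11, and this is a contrast that chose Ggt1, so its values are described and not tested. Ggt1 stood at 36.9, 88.3 and 31.1 CPM in Il13+ cells and at 0, 0 and 2.70 CPM in Il4+ Il13- cells. Summed over mice, 26 against 3 UMIs gave a ratio of 90.7. The level in Il13+ cells is thus of the size seen in the reporter sort, while 23 cells held all 38 Ggt1 UMIs of the Tfh-sort T cells. Srxn1 stood at 197, 54.0 and 15.6 CPM in Il13+ cells and at 34.2, 23.8 and 25.2 CPM in Il4+ Il13- cells, so mouse 1 was far above and mouse 3 below. Gclm was at 67.6, 49.1 and 77.8 against 50.3, 49.2 and 60.4 CPM, and Gclc at 12.3, 19.6 and 0 against 7.74, 8.65 and 7.21 CPM. Prdx1, Txnrd1 and Mgst2 overlapped between the states.

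Il4+ Il13- cells of the Tfh sort (358, 431 and 246 cells) were compared with cells of neither cytokine (553, 559 and 298), which bears on Tfh cells that make Il4. Srxn1 was chosen on cells of this sort, and earlier Mgst2 values of this sort were known when the comparisons were chosen. The values of both are therefore described and not tested. Of Prdx1, Txnrd1, Gclm and Gclc, Prdx1 alone was called, as higher. In this contrast edgeR called 4.87% of 8117 genes, 1.88% higher and 2.98% lower. DESeq2 did not call Prdx1, and gave no adjusted p for Mgst2. Mgst2 stood at 16.1, 11.9 and 17.1 CPM in Il4+ cells and at 43.8, 43.1 and 23.1 CPM in the others. Every Il4+ mouse was below every other value. The fall was -1.41 ± 0.21, with -1.34 at matched total UMIs and -1.67 to -0.90 over the 13 alternatives. Foxp3+ cells, regulatory T cells by their defining factor, carried much Mgst2 (72.6, 74.1 and 35.1 CPM in 74 cells, against a mean of 25.0 CPM in the rest). They made up 2.24%, 0.928% and 0.813% of the Il4+ and 3.44%, 3.22% and 1.68% of the other cells. Without them the Mgst2 change stayed within the range of the alternatives. A cell without a Foxp3 UMI is not shown to lack Foxp3, so this may not remove all regulatory T cells. Summed regulatory T cell markers were at 199, 151 and 137 CPM in Il4+ and at 270, 214 and 203 CPM in the other cells. Summed NK cell markers were at 2.58, 2.16 and 1.80 CPM in Il4+ and at 18.3, 4.25 and 8.78 CPM in the other cells. The part of both marker sets in the fall was not tested.

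Prdx1 stood at 1022, 997 and 1085 CPM in Il4+ and at 909, 917 and 864 CPM in the other cells, a rise of 0.17 ± 0.04 (adjusted p = 0.010) without overlap. It was called under 9 of 14 alternatives. At matched total UMIs it was 0.01 (adjusted p = 0.98), and without mouse 3 it was 0.11 (adjusted p = 0.20). Il4+ cells held more UMIs (medians 3203, 3293 and 3562 against 2634, 2339 and 2466) and more often an Mki67 or Top2a UMI (21.2%, 23.7% and 26.0% against 16.3%, 12.9% and 19.1%). Srxn1 stood at 34.2, 23.8 and 25.2 CPM against 19.4, 14.6 and 18.7 CPM, higher in every Il4+ mouse and without overlap (0.66 ± 0.21). Without Foxp3 cells it was 0.69, and at matched total UMIs 0.47. Gclm (0.31), Txnrd1 (0.04) and Gclc (0.59) were not called.

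Srxn1 in the Tfh sort was also set against Il4 and against Sostdc1, a secreted antagonist made by Tfh cells. By Il4 UMIs (0, 1, 2 to 4, 5 or more) Srxn1 averaged 17.3, 15.4, 18.2 and 44.3 CPM, with 65.1, 31.8 and 36.0 CPM in mice 1 to 3 of the last step. By Sostdc1 UMIs (0, 1 to 4, 5 or more) it averaged 22.2, 25.7 and 52.1 CPM, while by Cxcr5 UMIs it was flat at 24.0, 24.0 and 22.9 CPM. In cells with both Il4 and Sostdc1 it averaged 45.7 CPM, with Il4 only 30.5 CPM, with Sostdc1 only 23.2 CPM and with neither 16.5 CPM. Mgst2 over these 4 classes averaged 12.9, 15.1, 21.5 and 40.4 CPM, so of these 4 classes Mgst2 was lowest in the one where Srxn1 was highest. These steps and classes are not matched for depth. They also include Il13+ cells, in which Srxn1 stood at 197, 54.0 and 15.6 CPM in mice 1 to 3. The part of the Il13+ cells was not tested. Unlike Gclm (66.5 against 37.5 CPM) and Prdx1 (1210 against 844 CPM), Srxn1 was lower in Tfh-sort cells with an Mki67 or Top2a UMI (16.2 against 28.2 CPM).

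**Figure D5:**
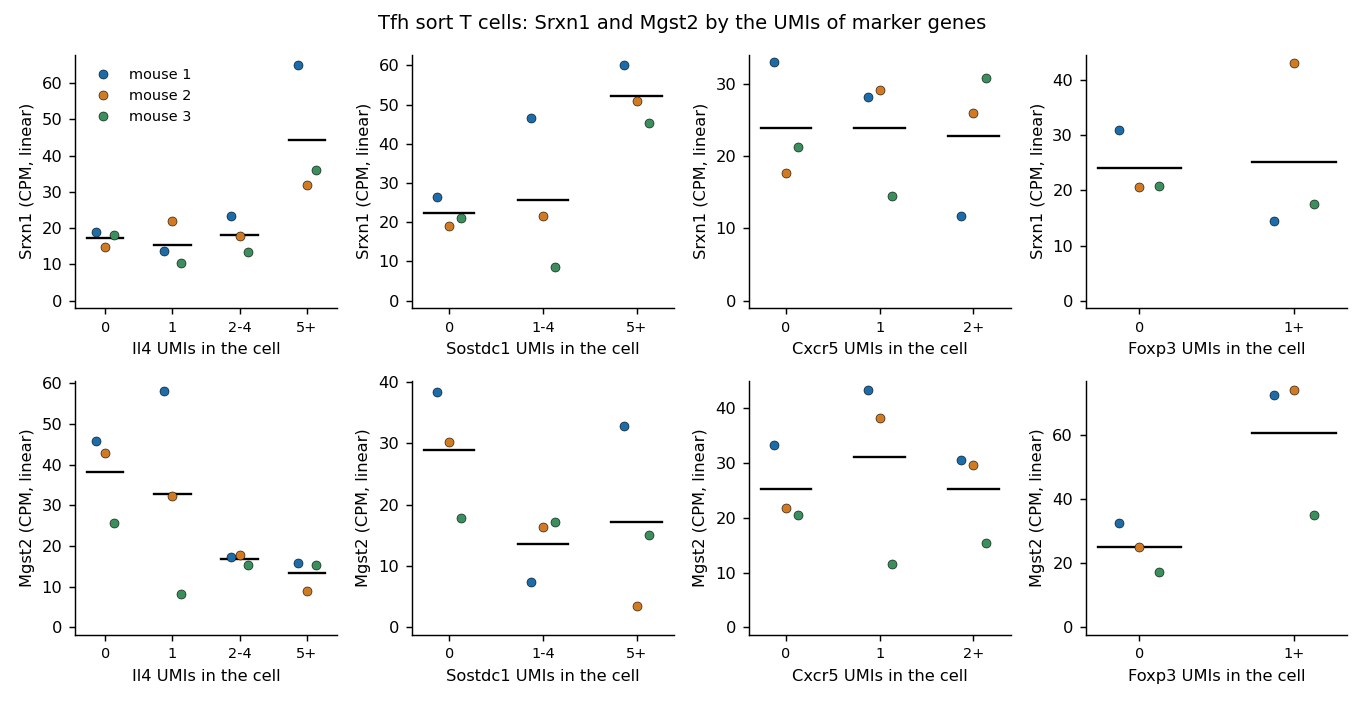
Srxn1 (top) and Mgst2 (bottom) in CPM in T cells of the Tfh sort by the UMIs of Il4, Sostdc1, Cxcr5 and Foxp3; points are mice and bars the mean of 3 mice. Srxn1 averaged 44.3 CPM at 5 or more Il4 UMIs and 52.1 CPM at 5 or more Sostdc1 UMIs, and Mgst2 60.6 CPM in Foxp3+ cells. Cells with Il13 UMIs are included.

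Sostdc1+ cells (166, 199 and 117, 1 or more UMIs) and Sostdc1- cells (775, 724 and 475) were tested over mice at matched total UMIs. Among Txnrd1, Gclm, Gclc and Prdx1 edgeR gave 0 calls, with none at an unadjusted p under 0.05 and 0 by DESeq2. Of all 7719 genes 1.28% were called (0.622% higher and 0.661% lower). Srxn1 and Mgst2 are again described only. Srxn1 stood at 50.9, 31.9 and 18.7 against 29.2, 22.02 and 18.9 CPM, with mouse 3 level (0.55 ± 0.22). Mgst2 stood at 15.3, 11.8 and 16.6 against 33.6, 28.7 and 17.8 CPM, lower in every mouse (-0.96 ± 0.28). Txnrd1, Gclm, Gclc and Prdx1 lay between -0.17 and 0.12.

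Whether the other genes go with Srxn1 was asked in the reporter sort, whose cells did not choose it. Srxn1+ cells (1 or more UMIs; 55, 44 and 54 cells) were set against Srxn1- cells matched for total UMIs (357, 340 and 543). None of 6 other genes was called by edgeR, where 0.975% of 9539 genes were called (0.660% higher and 0.314% lower), with 2 at an unadjusted p under 0.05 and 0 by DESeq2. Gclc stood at 71.2, 41.0 and 37.3 CPM in Srxn1+ and at 34.7, 32.3 and 22.8 CPM in Srxn1- cells. It was the nearest, higher in every mouse and without overlap (0.69 ± 0.18, adjusted p = 0.099). Ggt1 stood at 23.7, 15.4 and 13.9 against 25.9, 25.6 and 23.3 CPM (-0.54, adjusted p = 0.37). Prdx1, the substrate of the Srxn1 enzyme, was level (0.01), as was Gclm (-0.02), and Txnrd1 was at 0.17 and Mgst2 at -0.36.

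Of the marker genes, Il13 was called in this contrast, at 3084, 1760 and 810 CPM in Srxn1+ and at 871, 930 and 327 CPM in Srxn1- cells (1.35 ± 0.13, adjusted p = 0.0005). Il4 (0.15, adjusted p = 0.80), Gata3 (0.47, adjusted p = 0.15), Sostdc1 (0.57, adjusted p = 0.47) and Cxcr5 (-1.0035, adjusted p = 0.12) were not called. Beside this, summed regulatory T cell markers were at 286, 191 and 262 against 111, 126 and 143 CPM. Mast cell or basophil markers were at 20.2, 2.56 and 0 against 1.15, 0.164 and 0.373 CPM. Their UMIs were of Mcpt8 and Cpa3, with Fcer1a, Ms4a2 and Gata2 at 0. The part of both marker sets was not tested. With no mouse term the same contrast called 1 gene in all in place of 93, so calls here rest on the comparison within mice.

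The 5 genes most like Srxn1, by the largest called rise in Srxn1+ reporter-sort cells with the same direction in 3 mice and 20 CPM or more, were 1700061F12Rik, Basp1, Hdc, Gzmb and Gpt2. Gzmb, the protease of cytotoxic granules, rose by 1.85 (adjusted p = 0.022), and Hdc, which makes histamine, rose by 1.96 (adjusted p = 0.0014). Their spread between mice was wide, at 297 ± 315 CPM in Srxn1+ cells for Gzmb and 272 ± 283 CPM for Hdc. 1700061F12Rik rose by 3.16, Basp1 by 2.72 and the alanine transaminase gene Gpt2 by 1.78. In the Tfh sort, at matched total UMIs, Gzmb was at 13.7 ± 14.3 CPM in Srxn1+ and 1.35 ± 0.657 CPM in Srxn1- cells, on just 11 against 9 UMIs. Gzmb was higher in 3 of 3 mice, 1700061F12Rik, Hdc and Gpt2 in 2 of 3, and Basp1 in 1 of 3.

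In the Tfh sort itself, Srxn1+ cells (83, 62 and 42) are described without a test, since Srxn1 chose them. Matched for total UMIs, they held Gclc at 15.0, 10.9 and 4.98 CPM against 5.56, 6.97 and 6.09 CPM, and Ggt1 at 10.7, 27.2 and 0 against 0.794, 4.18 and 1.83 CPM. Both were higher in mice 1 and 2 and lower in mouse 3. Mgst2 averaged 22.6 against 23.3 CPM, Gclm 50.9 against 55.0 CPM, Prdx1 1046 against 1093 CPM and Txnrd1 67.0 against 65.1 CPM.

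The rest of the pathway was taken from lists chosen with earlier results known. In Il13+ against Il4+ Il13- reporter cells, where 28.3% of all genes were called (14.3% higher and 14.0% lower), 1 of 11 NRF2 regulators was higher and 4 lower, with a list median of -0.17. The 4 were Bach2 (-2.07, adjusted p = 0.00036), Maff (-1.23), Bach1 (-1.20) and Mafk (-1.15), that is, both BACH competitors and 2 small MAF partners. Of 13 other NRF2 targets 4 were higher, namely the glutathione reductase gene Gsr (0.76), the thioredoxin gene Txn1 (0.76) and the NADPH-producing pathway genes Pgd (0.69) and Tkt (0.45), and 1 was lower (median -0.02). Of 14 glutathione genes 3 were higher and none lower (median 0.31), led by the transferase Gsto1 (2.27) and the peptidase Lap3 (1.58). Of 19 thioredoxin and peroxide genes 5 were higher, with Prdx4 (0.95) and Prdx3 (0.55) among them, and 1 lower, the thioredoxin inhibitor Txnip (-1.49). The median of this list was 0.22. DESeq2 called 2 of the NRF2 regulators, 1 other NRF2 target, 2 glutathione genes and 3 thioredoxin and peroxide genes. It called 1107 of all genes other than Il13 and Il4. The states were not matched for total UMIs in these counts.

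Further lists were counted in the same contrast, against the same 28.3% of all genes. Of 13 ATF4 genes, the amino acid stress programme that also controls Slc7a11, 5 were higher and 1 lower (median 0.15), with Shmt2 (1.48), Slc7a5 (1.22) and Asns (1.21) higher and Ddit3 (-1.49) lower. All 17 proliferation genes were higher (median 1.05), and 19 of 25 genes of acute stimulation were lower and 2 higher (median -0.43). DESeq2 called 3 of the ATF4 genes, 17 of the proliferation genes and 12 of the acute stimulation genes. Of 3 leukotriene genes that could be tested, 2 were receptors and higher: Ltb4r1, for leukotriene B4, at 217 ± 89.0 against 20.7 ± 10.3 CPM (3.41 ± 0.21, adjusted p = 1.7e-14), and Cysltr1, for leukotriene D4, the product of Ggt1, at 60.2 ± 10.49 against 28.2 ± 8.63 CPM (0.99 ± 0.22, adjusted p = 0.001). Both were also higher in Gata3-marked than in Tfh-marked cells, by 6.00 for Ltb4r1 and 4.58 for Cysltr1. Mice 1 to 3 of the Tfh-marked cells held just 1, 1 and 2 UMIs of Ltb4r1 and 0, 0 and 5 of Cysltr1. Both genes passed the filter on low counts only through the Gata3-marked cells, so the sizes of these changes rest on values near the floor. In Gata3-marked against Tfh-marked cells, 0 of 11 NRF2 regulators were called by edgeR (3 at an unadjusted p under 0.05, 0 by DESeq2). In the same contrast 1 other NRF2 target, Hmox1, was lower (-1.32), and the thioredoxin-related Glrx (0.79) and Prdx6 (0.34) were higher. DESeq2 called 0 of the other NRF2 targets and 1 of the thioredoxin and peroxide genes there.

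In Il4+ Il13- cells of the Tfh sort, where 4.87% of all genes were called, 7 of 17 proliferation genes were higher and 7 of 25 genes of acute stimulation lower. Of the other lists the serine synthesis genes Phgdh (0.69) and Psat1 (0.67) of the ATF4 list and Prdx2 (0.25) were higher, and the ferritin gene Ftl1 was lower (-0.11). DESeq2 called 1 proliferation gene, 2 of acute stimulation and 1 of the ATF4 list, and none from the lists of Prdx2 and Ftl1. In Sostdc1+ cells, where 1.28% of all genes were called, 3 genes of acute stimulation were higher and 2 lower, and 2 of 17 proliferation genes were lower. Sqstm1, whose protein takes KEAP1 away from NRF2, was the 1 regulator of 10 called, and it was higher (0.43, edgeR adjusted p = 0.019). DESeq2 called 0 regulators, 1 gene of acute stimulation and 0 proliferation genes there. None of the 13 other NRF2 targets was called by edgeR there (1 at an unadjusted p under 0.05, 0 by DESeq2).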

How the data were processed

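Single-cell 3′ RNA was measured with 10x Genomics droplets in 1 lane a sort. Per the file headers and values, the authors deposited raw UMI counts per gene and barcode, and raw tag counts per hashtag and barcode. Cell Ranger 2.2.0 is named in the submitters' processing notes, with bcl2fastq 2.18.0.12 and 2.20.0.422 and builds mm10 and GRCm38, while the header of the reporter matrix names software version 3.0.2. Of 28692 features, 67 duplicates of a symbol were summed into it. Cells were kept with at least 500 genes and no more than 10% mitochondrial UMIs. A mouse was assigned where its hashtag had 10 or more counts and 3 times the second, which also drops most doublets between mice; doublets within a mouse stayed. T cells needed a UMI of T cell markers or Cd4 and under 2 UMIs each of B cell, CD8 and macrophage markers.

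UMIs were summed per mouse and state and tested with edgeR 4.0.16 in R 4.3.3 (quasi-likelihood, TMM, filterByExpr at 10 counts, Benjamini-Hochberg adjustment over all genes tested at 0.05), 6 sums and 2 residual degrees of freedom a comparison, and 6 comparisons. Both states come from the same animal by its hashtag, so the mouse was a block. The code was tested on simulated counts. The Gata3, Srxn1 and Sostdc1 comparisons were matched for total UMIs within mice in 5 bins, and the others had this as an alternative. DESeq2 1.42.0, RLE factors, no low-count filter, no block, leaving out a mouse, no T cell gate, other hashtag, mitochondrial and UMI limits were further alternatives. Leaving out cells with Foxp3 or with Mki67 or Top2a was chosen after seeing the data. Levels of the 8 genes, of summed markers and of the genes most like Srxn1 are plain CPM. Levels of Il13, Ltb4r1 and Cysltr1 are on TMM-scaled totals. Upper limits (3 counts) cover counting error only, and mice of a sort shared 1 lane. The members, lists and comparisons were chosen with earlier results of these data known, among them Ggt1 and Mgst2 in the Tfh sort. Ggt1 in the Il13 and Gata3 comparisons and Srxn1 and Mgst2 within the Tfh sort are therefore given without a p. Named beyond the 8 are up to 4 called genes of a list by size of change and the 5 most like Srxn1. The Tfh-sort clusters were not rebuilt. Description used Python 3.11.15, numpy 2.4.6, pandas 2.3.3 and scipy 1.17.1.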

Additional observations from a re-analysis of the deposited data

How the results depend on the processing

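Of 504 values of the 8 genes under alternatives, those given without a p included, 434 kept direction and side of the threshold, 17 lost the call, 23 gained it and 30 changed sign, none of these called in the main setting. For Il13+ against Il4+ Il13- reporter cells, 2559 genes were called, against 1109 by DESeq2, 626 matched for depth, 864 at a mitochondrial limit of 5%, 499 without Mki67 or Top2a cells and 1304 to 2854 leaving out a mouse. For Il4+ Il13- against Il4- Il13- reporter cells the count of 232 became 114 with no replicate block, 95 by DESeq2, 142 matched, 471 with no T cell gate, 86 at the 5% limit, 46 without Mki67 or Top2a cells and 151 to 186 leaving out a mouse. For Gata3-marked against Tfh-marked cells 828 became 286 by DESeq2, 3328 with no matching, 245 at the 5% limit and 415 to 752 leaving out a mouse. For Srxn1+ against Srxn1- reporter cells 93 became 352 with no low-count filter, 1 with no replicate block, 56 by DESeq2, 1323 with no matching, 20 at the 5% limit, 140 at the other UMI limit, 178 without Mki67 or Top2a cells and 17 to 214 leaving out a mouse. In the Tfh sort, the Il4 count of 395 became 246 with no replicate block, 62 by DESeq2, 107 matched, 1085 with no T cell gate, 195 without Mki67 or Top2a cells and 191 to 299 leaving out a mouse. The Sostdc1 count of 99 became 156 with no low-count filter, 17 by DESeq2, 63 with no matching, 240 with no T cell gate, 170 at the other UMI limit, 61 without Foxp3 cells, 211 without Mki67 or Top2a cells and 35 to 79 leaving out a mouse. With no replicate block the other counts were 2166, 709 and 70. The cause was not tested. Of the calls, 50.6%, 73.3%, 61.6%, 67.7%, 38.7% and 48.5% were higher in these 6 comparisons in order, and 54.2%, 93.7%, 75.9%, 76.8%, 45.2% and 35.3% by DESeq2, whose median change in the first was -0.17 in place of -0.01. Sign changes were as follows. In Il4+ Il13- reporter cells Txnrd1 was -0.017 and Gclm -0.10 and Prdx1 -0.15 at the 5% limit, Gclm -0.066 without Mki67 or Top2a cells, Prdx1 -0.077 matched, and Txnrd1 -0.051 to 0.35 leaving out a mouse. In Gata3-marked cells Txnrd1 was -0.062 at the 5% limit and -0.12 without Mki67 or Top2a cells, and Gclm 0.47 with no matching and 0.20 with no T cell gate. In Srxn1+ reporter cells Gclm was 0.20 with no matching, 0.0013 with no T cell gate, 0.34 without Mki67 or Top2a cells and -0.27 to 0.12 leaving out a mouse. There Prdx1 was -0.034 with no low-count filter, -0.093 at the 5% limit, -0.15 at the other UMI limit, -0.15 without Mki67 or Top2a cells and -0.037 to 0.026 leaving out a mouse, Ggt1 1.47 without Mki67 or Top2a cells and Mgst2 0.23 at the 5% limit. In the Tfh sort Txnrd1 was -0.086 matched and -0.029 to 0.11 leaving out a mouse (Il4), and 0.019 at the 5% limit and -0.15 to 0.12 leaving out a mouse (Sostdc1), Gclm 0.15 without Mki67 or Top2a cells and -0.27 to 0.0081 leaving out a mouse, and Gclc -0.070 without Foxp3 cells. Thinning to 1000 UMIs in place of 2000 moved 44 shares of cells by more than their SD over mice and left 20. Depth limits Slc7a11 in both sorts and Ggt1 in the Tfh sort, with 8, 17 and 38 UMIs.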
